A study of Homo sapiens with 6 samples.

Results

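The genes described here are 9 genes of MHC class I antigen presentation, HLA-B, HLA-C, HLA-E, HLA-F, B2M, TAP1, TAP2, TAPBP and NLRC5, chosen by name from the 58735 genes of the deposited tables, and all 9 had enough counts to be tested. RNA was sequenced from NCI-N87, an established human gastric cancer cell line. In 3 libraries the cells had received the lentiviral vector PLVX-IRES-Puro with EGLN3, the gene of a prolyl hydroxylase that marks hypoxia-inducible factors for breakdown, and in 3 libraries the same vector without an insert. The EGLN3 replicates 1 and 2 and the empty-vector replicates 1 to 3 were kept for 1 day with the plasmid and then for 7 days in puromycin, which kills cells without the vector. For EGLN3 replicate 3 the label gives 5 days with the plasmid, followed by the same puromycin selection. Puromycin selection and the vector backbone are thus shared by all 6 libraries, and the labels name neither the promoter that drives EGLN3 nor separate cultures for the replicates. What p-values measure here is therefore library-to-library spread alone, possibly of technical origin.

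Nearly every nucleated cell shows peptides from its own proteins on MHC class I, a complex of a heavy chain (HLA-B, HLA-C and HLA-E among others) with the light chain beta-2-microglobulin (B2M). Peptides made by the proteasome enter the endoplasmic reticulum through the transporter TAP, a pair of TAP1 and TAP2, and tapasin (TAPBP) holds empty class I molecules beside it. NLRC5 is the transactivator that gathers factors on class I promoters, and interferon raises most of these genes. Tumour cells, those of the stomach included, can lose class I and so escape T cells.

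The stretches of DNA before these genes show what they share. RefSeq promoter windows (GRCh38.p14, 250 bases before to 50 after the transcription start) covered 7 of the 9 genes, all but HLA-E and NLRC5. The 200 bases before the start are printed for 3 heavy chains and the light chain, whose levels moved together between libraries, and for TAP1, whose level moved the other way. RefSeq has 2 windows for TAP1, of which the one farther upstream was used. The printed TAP1 and HLA-F stretches lie within the gene bounds of the deposited table, which reach to 32853978 for TAP1 and begin at 29722775 for HLA-F. Those of HLA-B, HLA-C and B2M lie partly within the bounds of their genes. The stretches are reference sequence, not that of the HLA alleles of this line. All are written 5′ to 3′ along the gene's own strand. They lie at chr6:31357180-31357379 (minus strand), chr6:31272093-31272292 (minus), chr6:29723234-29723433 (plus), chr15:44711317-44711516 (plus) and chr6:32853705-32853904 (minus). Capitals mark matches on either strand to any of 4 motifs.
HLA-B: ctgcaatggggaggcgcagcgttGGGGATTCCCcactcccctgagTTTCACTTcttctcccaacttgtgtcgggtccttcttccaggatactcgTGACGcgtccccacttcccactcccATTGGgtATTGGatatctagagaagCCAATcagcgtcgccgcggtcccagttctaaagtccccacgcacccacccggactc
HLA-C: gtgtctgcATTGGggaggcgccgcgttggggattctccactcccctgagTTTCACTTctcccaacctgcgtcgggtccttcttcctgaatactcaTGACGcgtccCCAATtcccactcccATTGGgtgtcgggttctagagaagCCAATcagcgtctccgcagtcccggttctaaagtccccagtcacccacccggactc
HLA-F: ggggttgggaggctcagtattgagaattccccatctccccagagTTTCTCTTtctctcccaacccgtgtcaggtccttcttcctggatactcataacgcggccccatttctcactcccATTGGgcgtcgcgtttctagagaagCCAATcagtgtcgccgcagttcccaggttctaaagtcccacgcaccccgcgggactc
B2M: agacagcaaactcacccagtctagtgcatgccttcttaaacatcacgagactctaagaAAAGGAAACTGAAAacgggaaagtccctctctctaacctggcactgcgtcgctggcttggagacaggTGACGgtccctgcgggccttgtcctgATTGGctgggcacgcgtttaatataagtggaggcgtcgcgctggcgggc
TAP1: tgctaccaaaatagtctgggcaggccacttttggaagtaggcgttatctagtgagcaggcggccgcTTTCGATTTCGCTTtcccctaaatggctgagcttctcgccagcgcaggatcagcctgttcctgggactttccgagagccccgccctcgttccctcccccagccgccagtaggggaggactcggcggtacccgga
The motifs were the core of the interferon-stimulated response element (ISRE, TTTCNNTT), an NF-kB site (kB, GGG and TTCCC with 2 bases of any kind between them), the Y box bound by NF-Y (CCAAT) and the core of the cyclic AMP response element (CRE, TGACG), where N is any base. The ISRE core was found in the windows of 7 of 7 genes, against 22.8% of 35116 windows of the same length in the genome. The Y box was found in 5 of 7 (34.6% of all windows), the CRE core in 4 of 7 (24.6%) and the kB site in 1 of 7, HLA-B (2.17%). B2M, TAP1, TAP2 and TAPBP each held 2 overlapping ISRE cores in a run of 14 bases, AAAGGAAACTGAAA in B2M, TTTCGATTTCGCTT in TAP1, AAGCGAAAGCGAAA in TAP2 and AAGTGAAAGTGAAA in TAPBP. The 300-base windows of HLA-B and HLA-C were identical at 88.5% of aligned positions, and those of HLA-B and HLA-F at 79.7%. The kB pattern is 1 strict form of an NF-kB site. Sites with other letters were not searched for and are not in capitals, so the count does not single out HLA-B as the only gene with an NF-kB site. A match is a match of letters and does not show that a factor binds there.

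Library totals ran from 15157265 to 16531328 counts with EGLN3 and from 15948514 to 16767383 with empty vector, and the 9 genes took 0.298% to 0.394% of the counts with EGLN3 and 0.289% to 0.353% with empty vector. EGLN3 itself had 7298, 27674 and 27494 counts in its 3 libraries, against 10, 11 and 9 with empty vector, which fits the labels. The 6 epithelial markers checked (ERBB2, EPCAM, CDH1, KRT8, KRT18, KRT19) summed to 33228 to 53068 CPM with EGLN3 and 38276 to 46888 CPM with empty vector (CPM, counts scaled to library size with TMM factors). Of 8 immune markers only CD14 had enough counts to be tested, the B-cell marker MS4A1 had 0 counts in every library, and the 8 summed to 2.37 to 4.95 CPM with EGLN3 and 2.75 to 3.49 CPM with empty vector. The 5 stromal and endothelial markers summed to 5.62 to 6.53 CPM with EGLN3 and 6.87 to 7.66 CPM with empty vector, without overlap. Among them COL1A2 had 0 counts in every library and PECAM1 at most 1, and their part in the results was not tested. ERBB2, the receptor that this line carries in excess, had a log2 fold change of -0.14 (SE 0.15), KRT8 of -0.11 (SE 0.25) and CD14 of 0.09 (SE 0.35). In bulk RNA, fewer cells that express a gene and less RNA per cell cannot be told apart.

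Transcripts of the class I light chain and the classical heavy chains were among the most abundant of the line. Levels between genes are compared here in FPKM (fragments per kilobase and library size), scaled between libraries by the authors. The length is that of all annotated exons of a gene together, which exceeds single transcripts unequally. It is 6079 bases for B2M, whose longest transcript has 2403, and 2507 for HLA-C, whose longest has 1880. Ranks, order and ratios between genes depend on these lengths. B2M, on chromosome 15 (44711487 to 44718877), had 426, 309 and 283 FPKM in EGLN3 replicates 1 to 3, against 280, 350 and 364 FPKM in empty-vector replicates 1 to 3. EGLN3 replicate 1 was the highest library, and the other EGLN3 libraries lay at the low end of the empty-vector range. With empty vector B2M ranked 83rd of 12794 tested protein-coding genes, above 99.4% of them, and HLA-B and HLA-C were above 98.6% and 97.5%.

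HLA-B, a classical heavy chain that presents peptides to CD8 T cells, is annotated on chromosome 6 (31269491 to 31357188, in hg38 as all gene positions here). It had 292, 144 and 127 FPKM with EGLN3, against 126, 186 and 210 FPKM with empty vector. EGLN3 replicate 1 stood above all others, and the groups overlapped widely. HLA-C, a classical heavy chain that is also a ligand of killer-cell receptors (31268749 to 31272130), had 110, 92.1 and 86.8 FPKM with EGLN3 and 83.0, 115 and 107 FPKM with empty vector. Its libraries were closer together, with a highest to lowest ratio of 1.39 against 2.32 for HLA-B. HLA-E, a nonclassical chain read by the NKG2A receptor of natural killer cells (30489467 to 30494205), had 59.6, 44.8 and 39.9 FPKM with EGLN3 and 46.3, 57.6 and 55.6 FPKM with empty vector. HLA-F, a nonclassical chain that binds receptors of natural killer cells (29722775 to 29738528), was far lower, at 14.4, 7.75 and 6.28 FPKM with EGLN3 and 7.06, 11.4 and 12.8 FPKM with empty vector. In HLA-E and HLA-F, EGLN3 replicate 1 was highest and EGLN3 replicate 3 lowest.

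The peptide transporter, tapasin and the transactivator sat lower than the classical chains. TAP1 (chromosome 6, 32845209 to 32853978) had 12.3, 17.4 and 17.3 FPKM with EGLN3 and 20.4, 20.5 and 15.6 FPKM with empty vector. Here EGLN3 replicate 1 was the lowest library, and empty-vector replicate 3 fell below the other 2 EGLN3 libraries, so the groups overlapped. TAPBP (33299694 to 33314387) had 17.6, 13.2 and 12.4 FPKM with EGLN3 and 12.6, 13.3 and 15.5 FPKM with empty vector. TAP2 (32821833 to 32838780) varied least, at 9.89, 8.70 and 8.76 FPKM with EGLN3 and 7.78, 8.04 and 9.04 FPKM with empty vector. NLRC5, on chromosome 16 (56989485 to 57083531), had 5.91, 7.62 and 8.04 FPKM with EGLN3 and 7.90, 6.74 and 5.78 FPKM with empty vector. It was low where the heavy chains were high. The order by empty-vector mean was B2M, HLA-B, HLA-C, HLA-E, TAP1, TAPBP, HLA-F, TAP2 and NLRC5. The steps down to TAP1 and that between TAPBP and HLA-F held in 6 of 6 libraries, whereas TAP1 exceeded TAPBP in 5 of 6, HLA-F exceeded TAP2 in 3 of 6 and TAP2 exceeded NLRC5 in 5 of 6.

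**Figure D1:**
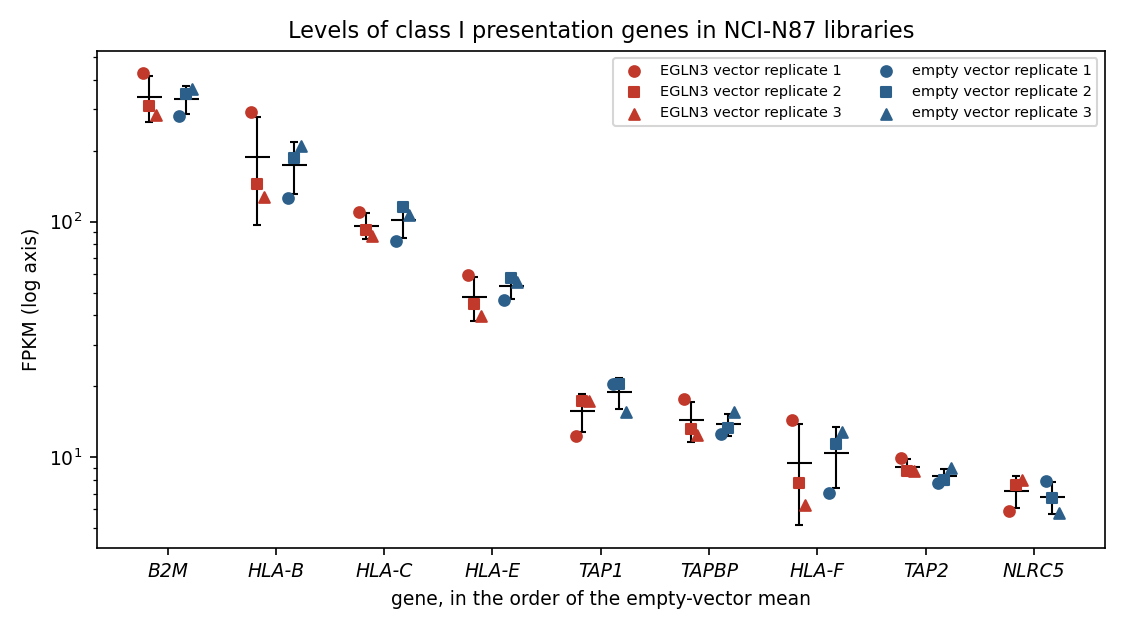
FPKM (log axis) of the 9 genes in each library, EGLN3 vector left of empty vector, with the mean and SD of 3 libraries as bars. B2M reached 426 FPKM and HLA-B 292 FPKM in EGLN3 replicate 1, the groups of every gene overlapped, and the lowest NLRC5 library was at 5.78 FPKM.

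Ratios within a library remove its scaling, but not the gene lengths used. HLA-B over HLA-C was 2.66, 1.56 and 1.47 in EGLN3 replicates 1 to 3, against 1.52, 1.62 and 1.97 with empty vector, so these neighbouring genes did not keep a fixed ratio. B2M over the sum of the 4 heavy chains was steadier, at 0.895, 1.07 and 1.09 with EGLN3 and 1.07, 0.945 and 0.946 with empty vector. TAP1 over TAP2 was 1.25, 1.99 and 1.98 with EGLN3 and 2.62, 2.55 and 1.72 with empty vector. Some of these counts share sequence. An annotated HLA-B transcript reaches into HLA-C, with 35 shared exon bases on the same strand, and 32.3% of the exon bases of TAP2 also belong to AL669918.1, a gene model of the same strand, in the annotation (GENCODE release 29). Parts of HLA-B, HLA-F and TAP1 overlap genes of the opposite strand, with PSMB8-AS1 over 9.49% of TAP1, and the sources used here do not say whether counting took strand into account. HLA genes are also alike and vary between people, so the division of reads among them is uncertain.

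The libraries differed most along an axis that does not separate the vectors, and most class I genes followed it. The first principal component of log2 CPM, computed over the 15717 other tested genes, held 70% of the variance. It placed EGLN3 replicates 1 to 3 at 59.4, -23.3 and -45.9, and empty-vector replicates 1 to 3 at -36.2, 11.5 and 34.4. The second component, with 11% of the variance, did separate the vectors. Its scores were 19.2, 7.8 and 16.2 with EGLN3 and -11.3, -20.8 and -11.1 with empty vector. EGLN3 itself was among the 15717 genes, and its share in this separation was not tested. Over the span of the first component from its lowest to its highest library, HLA-F and HLA-B were higher by 1.22 and 1.16 on the log2 scale. These spans were above those of 95% and 94% of the other genes. B2M, HLA-E, TAPBP and HLA-C were higher by 0.56, 0.53, 0.46 and 0.41, and TAP2 by 0.19, which turned to -0.01 when libraries were scaled by their raw totals, a scaling that moved the median of the other genes to -0.19. TAP1 and NLRC5 ran the other way, at -0.49 and -0.53. The other genes had a median of 0.00 with quartiles of -0.56 and 0.52, and the other 7 class I genes had spans above those of 26.3% to 76.6% of them. The axis accounted for 97.5% of the variance of HLA-B over the 6 libraries, 97.5% for HLA-F, 97.4% for B2M and 94.7% for NLRC5, but 50% for TAP1 and 39.6% for TAP2.

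The axis also moved with properties of the genes. Across genes, the log2 span was related to gene length with a Spearman's rho of -0.448 and to GC content with one of 0.358, where all points share the same 6 libraries and genes do not replicate each other. HLA-C, with the highest GC content of the 9 genes at 62.7%, had a smaller span than HLA-B at 59%, and B2M, with the lowest at 40.6%, had a larger one than HLA-C. NLRC5 is the longest, with 12386 exon bases against 2507 to 6390 for the others. The part of length or GC content in the span of single genes was not tested.

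**Figure D2:**
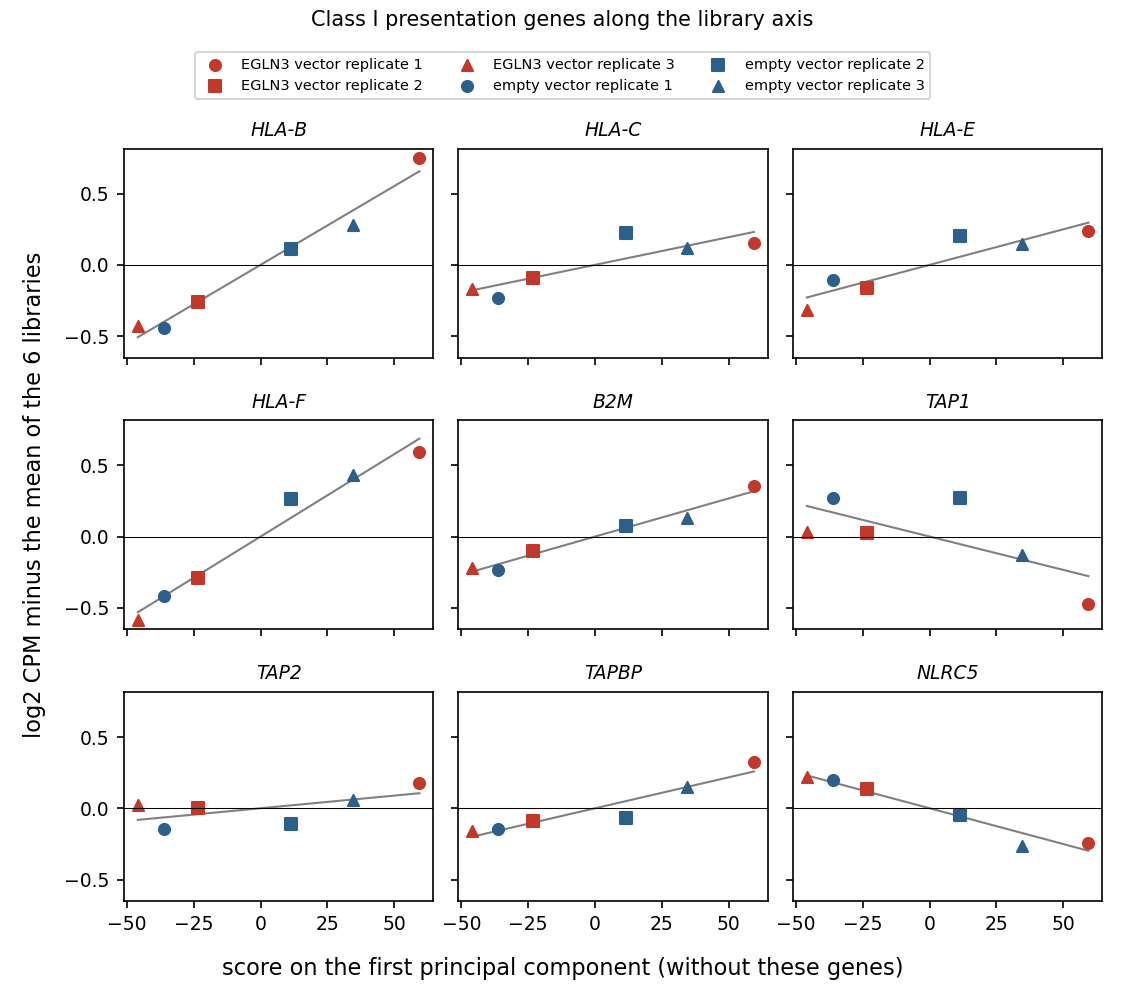
Log2 CPM of each gene minus its mean over the 6 libraries (vertical) against the library's score on the first principal component of the other genes (horizontal), with a fitted line. HLA-B and HLA-F climb by 1.16 and 1.22, NLRC5 declines by a log2 change of -0.53, and the TAP1 points scatter about their line.

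Outside the 9 genes, which were left out of the ranking, those most like the class I profile were not genes of antigen presentation. Of 9367 protein-coding genes with a mean of at least 10 CPM, the 5 with the highest Pearson correlation to the mean standardised profile of the 9 genes were RPS27 (0.9998), ATF4 (0.9994), UBTD1 (0.9988), RPL36AL (0.9986) and COX7C (0.9985), over 6 libraries that all 9 genes share. RPS27 and COX7C encode parts of the ribosome and of cytochrome c oxidase, and ATF4 is a transcription factor of the integrated stress response. Against the same profile, of which each gene is itself a part, HLA-B, HLA-F and B2M had correlations of 0.98, 0.98 and 0.99, while TAP1 and NLRC5 had -0.65 and -0.94. Most of the 9 followed the library axis, so other genes that follow it can rank high here. Likeness to class I beyond that axis was not tested.

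None of the 9 class I genes passed as changed by the EGLN3 vector. In edgeR's quasi-likelihood test with Benjamini-Hochberg adjustment over 15726 genes, 0 of 9 were called at an adjusted p under 0.05. Under an unadjusted p of 0.05 were 0 of 9, beside 174 of all 15726 tested genes. DESeq2 also called 0 of the 9, with 0 at that unadjusted mark, beside 163 of all tested genes. The background was 0.00636% of tested genes called, which is EGLN3 alone (adjusted p = 0.031). Of 6 fits with 1 library left out, 5 no longer called it, and that without EGLN3 replicate 1 did (log2 fold change 11.41, edgeR adjusted p = 9.8e-07). The 9 log2 fold changes had a median of 0.03, beside 0.01 over all tested genes, with 5 positive and 4 negative. In CPM the groups of 0 of 9 genes were free of overlap, beside 6.26% of all tested genes.

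Among the heavy chains, HLA-B averaged 578 ± 276 CPM with EGLN3 and 537 ± 132 CPM with empty vector (SD, n = 3 each), a log2 fold change of 0.11 with a 95% interval from -0.75 to 0.96 (edgeR, adjusted p = 1). That value was -0.34 without EGLN3 replicate 1 and -0.08 without empty-vector replicate 1. HLA-C averaged 244 ± 29.3 CPM with EGLN3 and 257 ± 41.1 CPM with empty vector, with a log2 fold change of -0.08 (interval -0.49 to 0.33) that was 0.03 without empty-vector replicate 2. HLA-E was at -0.15 (-0.59 to 0.29), and ran from -0.31 without EGLN3 replicate 1 to -0.04 without EGLN3 replicate 3. HLA-F was at -0.14 (-1.01 to 0.72), and at 0.08 and 0.03 without EGLN3 replicate 3 and empty-vector replicate 3. The light chain B2M averaged 2083 ± 454 CPM with EGLN3 and 2038 ± 267 CPM with empty vector, a log2 fold change of 0.03 (interval -0.46 to 0.52) that was -0.15 and -0.07 without EGLN3 replicate 1 and empty-vector replicate 1. All 5 intervals reach from a fall to a rise, and at this spread a change within them was not detectable.

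In the loading machinery, TAP1 averaged 76.0 ± 14.3 CPM with EGLN3 and 91.6 ± 13.9 CPM with empty vector, a log2 fold change of -0.27 (SE 0.20, interval -0.74 to 0.20; edgeR, adjusted p = 1), and it was below 0 in each of the 6 fits that left out 1 library (-0.39 to -0.11). TAP2 averaged 58.8 ± 4.05 CPM with EGLN3 and 53.6 ± 4.15 CPM with empty vector, with a log2 fold change of 0.13 (-0.17 to 0.44). It was above 0 in each of those 6 fits (0.09 to 0.20). TAPBP was at 0.06 (-0.36 to 0.48), and at -0.10 and 0.00 without EGLN3 replicate 1 and empty-vector replicate 1. The transactivator NLRC5 averaged 89.9 ± 14.6 CPM with EGLN3 and 85.3 ± 13.7 CPM with empty vector, with a log2 fold change of 0.08 (-0.37 to 0.52) that was -0.02 and -0.03 without EGLN3 replicate 3 and empty-vector replicate 3.

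Once a surrogate variable was added to the model, single class I genes passed, but which gene depended on the model. How this variable relates to the library axis was not tested. With 1 surrogate variable in the edgeR model, 4.53% of tested genes were called and 1 of the 9, TAP1, which was lower with EGLN3 (log2 fold change -0.32, SE 0.07, adjusted p = 0.0087). Adding each library's trend on gene length left 4.53% and the same gene (-0.30, adjusted p = 0.0093). With trends on GC content and gene length, 0.928% of genes were called and again 1 of the 9, now HLA-B, which was higher with EGLN3 (0.19, SE 0.04, edgeR adjusted p = 0.033), while TAP1 was at -0.20 and no longer passed (edgeR adjusted p = 0.11). HLA-B had been at 0.13 with the surrogate variable alone (edgeR adjusted p = 0.13). The surrogate variable and trends come from the same libraries and are then treated as known, so these SEs and p-values may be too small.

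Neither call held in every fit that left out a library. In the surrogate variable fit TAP1 lost its call without EGLN3 replicate 1 (-0.24), EGLN3 replicate 3 (-0.29) and empty-vector replicate 2 (-0.21), with edgeR adjusted p-values of 0.26, 0.12 and 0.072, and over the 6 such fits it ran from -0.38 to -0.21. In the fit with GC and length trends HLA-B lost its call without EGLN3 replicates 1 and 3 (0.15 each, edgeR adjusted p = 0.48 and 0.46) and without empty-vector replicates 1 and 3 (0.20 and 0.17, edgeR adjusted p = 0.051 and 0.087). TAP1 passed in that fit without empty-vector replicate 1 (-0.26, edgeR adjusted p = 0.043). TAP1 stayed below 0 and HLA-B above 0 in all 12 of these leave-one-out fits with a surrogate variable. Uncalled genes kept their sign as well. HLA-E stayed below 0 (-0.17 to -0.07, and -0.13 to -0.05 with GC and length trends). TAP2 (0.12 to 0.19, and 0.11 to 0.18) and TAPBP (0.05 to 0.12, and 0.11 to 0.19) stayed above 0. A constant sign is thus not particular to the called genes, and these fits share most of their libraries. HLA-E, HLA-F, B2M, TAP2, TAPBP, NLRC5 and HLA-C were called in 0 of the 3 fits with a surrogate variable.

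**Figure D3:**
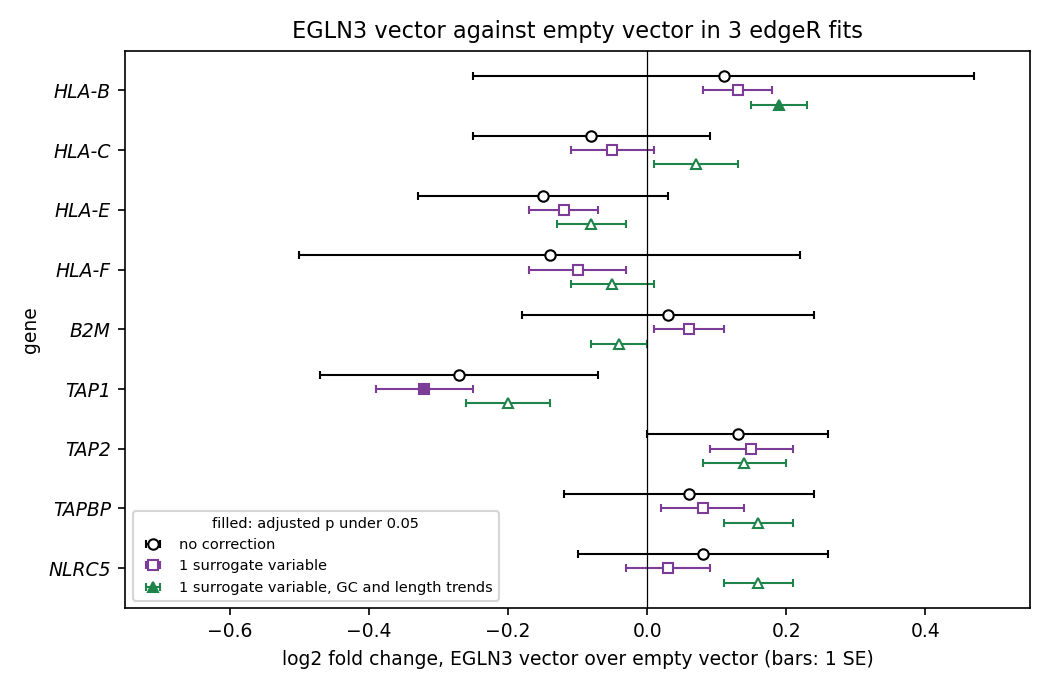
Log2 fold change of each gene, EGLN3 vector over empty vector, with 1 SE, in the edgeR fit without correction, with 1 surrogate variable, and with GC and length trends added. Filled symbols had an adjusted p under 0.05, which are TAP1 at -0.32 and HLA-B at 0.19.

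Genes of the immunoproteasome, which favours peptides that class I can hold, did not pass either. They are PSMB8, PSMB9 and PSMB10, which replace constitutive catalytic subunits, and PSME1 and PSME2, the subunits of the activator PA28. Of these 5 genes 0 were called, with log2 fold changes from -0.12 to 0.07 and a median of -0.07. PSMB8 had 103, 59.7 and 52.6 CPM with EGLN3, against 58.2, 82.0 and 86.4 CPM with empty vector. PSMB9 had 38.5, 20.7 and 16.4 CPM with EGLN3 and 19.4, 29.05 and 33.6 CPM with empty vector. PSMB10 had 13.5, 10.6 and 9.24 CPM with EGLN3 and 9.31, 13.6 and 12.7 CPM with empty vector. Over the library axis the 5 genes were higher by 0.59 to 1.21, and PSMB5, PSMB6 and PSMB7, the constitutive counterparts of the 3 catalytic subunits, by 0.90 to 1.29, all on the log2 scale. The ratio of PSMB8 to PSMB5 in FPKM varied little, at 0.435, 0.410 and 0.410 with EGLN3 and 0.453, 0.446 and 0.423 with empty vector. PSMB9 over PSMB6 was 0.142, 0.153 and 0.156 with EGLN3 and 0.152, 0.152 and 0.155 with empty vector, so the constitutive subunit was several times the more abundant transcript. PSMB10 over PSMB7 was 0.0398, 0.0522 and 0.0518 with EGLN3 and 0.0487, 0.0520 and 0.0462 with empty vector, lowest in EGLN3 replicate 1.

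PSMB9 and TAP1 are neighbours on opposite strands, with 488 bases between the RefSeq starts used here, and their levels ran in opposite directions over the axis. PSMB9 changed by 1.21 and TAP1 by -0.49 on the log2 scale, and PSMB9 over TAP1 in FPKM was 1.01, 0.386 and 0.304 with EGLN3, against 0.305, 0.456 and 0.697 with empty vector. The highest of these ratios, in EGLN3 replicate 1, was over 3 times the lowest.

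Of the peptide trimming and chaperone genes 0 of 7 were called, and their log2 fold changes centred on a median of 0.11. ERAP2, which trims peptides in the endoplasmic reticulum, had 41.0, 65.4 and 76.3 CPM with EGLN3 and 55.4, 44.2 and 39.5 CPM with empty vector, and a log2 fold change of 0.39 (SE 0.26). TAPBPL, which edits peptides outside the loading complex, was at 0.22 (SE 0.16). Calreticulin (CALR), which holds heavy chains during loading, had 646, 597 and 550 CPM with EGLN3 and 618, 754 and 688 CPM with empty vector, and a log2 fold change of -0.20 (SE 0.14). In the fit with 1 surrogate variable ERAP2 was called higher (0.30, edgeR adjusted p = 0.0051) and CALR lower (-0.18, edgeR adjusted p = 0.036). They alone were called there of the 61 tested companion genes, beside 4.53% of all tested genes. ERAP2 was also called with the length trend (0.31) and with GC and length trends (0.26), and CALR in neither. Those fits called 4.53% and 0.928% of all tested genes. These 3 fits were not repeated for ERAP2 and CALR with single libraries left out.

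Of the factors that bind class I promoters with NLRC5, 0 of 8 were called (median 0.09). RFX5 had 30.1, 46.8 and 45.7 CPM with EGLN3 and 42.9, 39.5 and 32.0 CPM with empty vector. ATF1 was at 0.12 (SE 0.12) and RFXANK at -0.25 (SE 0.27). Of 12 genes of interferon gamma signalling 0 were called, with a median log2 fold change of 0.10, beside 0.01 over all tested genes. IRF1, a factor that binds ISRE sequences, had 23.2, 14.0 and 12.6 CPM with EGLN3 and 15.01, 16.98 and 17.01 CPM with empty vector, and changed by 0.71 on the log2 scale over the library axis, the direction of HLA-B. The receptor subunit IFNGR2 was at 0.22 (SE 0.14), and the inhibitor SOCS3 at -0.24 (SE 0.23). Of 5 NF-kB factors 0 were called, with RELB at 0.25 (SE 0.35) and NFKB1 at -0.10 (SE 0.17). RELB was called higher in the fit with GC and length trends (0.38, edgeR adjusted p = 0.033) and not in the other 2 fits with a surrogate variable. With GC and length trends, RELB and ERAP2 alone were called of the 61 tested companion genes, beside 0.928% of all tested genes.

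Of 10 class II genes 6 had too few counts to be tested. The class II transactivator CIITA was the 1 gene of all 61 tested companion genes with an unadjusted edgeR p under 0.05. Among all 15726 tested genes 174 had such a p, so 1 of 61 is near the background share. Of the 4 tested 0 were called, and the other 6 had at most 4 counts in any library. HLA-DRB1 and HLA-DQA1 had 0 counts in every library, which allows up to 0.175 to 0.198 CPM in a library (3 counts, counting error only). CIITA had 2.84, 3.62 and 3.50 CPM with EGLN3, against 2.21, 1.92 and 1.63 CPM with empty vector, so the groups did not overlap. The groups of 6.26% of all tested genes did not overlap either. The edgeR log2 fold change of CIITA was 0.79 with an SE of 0.23 (edgeR, unadjusted p = 0.011 and, over all genes, adjusted p = 1), and 0.68 to 0.90 when 1 library was left out. On log2(FPKM + 1), which understates changes of low genes, it was 0.09. With a surrogate variable, with the length trend, and with GC and length trends in the edgeR model it was 0.75, 0.75 and 0.81 (edgeR, adjusted p = 0.052, 0.051 and 0.079), so it did not pass there either. CD74, the invariant chain of class II, had 1.65, 2.13 and 1.19 CPM with EGLN3 and 1.80, 1.92 and 1.19 CPM with empty vector, and HLA-DMA had a log2 fold change of -0.14 (SE 0.31).

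Of 10 class I-like molecules and ligands of natural killer cells, 7 were tested and 0 called, with a median of 0.01. HFE, which regulates iron uptake, was at -0.17 (SE 0.19) and ULBP1, a ligand of NKG2D, at 0.19 (SE 0.27). HLA-G had 0 counts in the EGLN3 libraries and at most 1 count with empty vector. Over all 11 companion lists 0 of 61 tested genes were called by edgeR without correction and 0 by DESeq2. Besides CIITA, the groups of COL1A1 (log2 fold change -0.28, SE 0.17) and VWF (-0.63, SE 0.35), both from the stromal and endothelial list, did not overlap, which is 3 of 61 beside 6.26% of all tested genes.

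**Figure D4:**
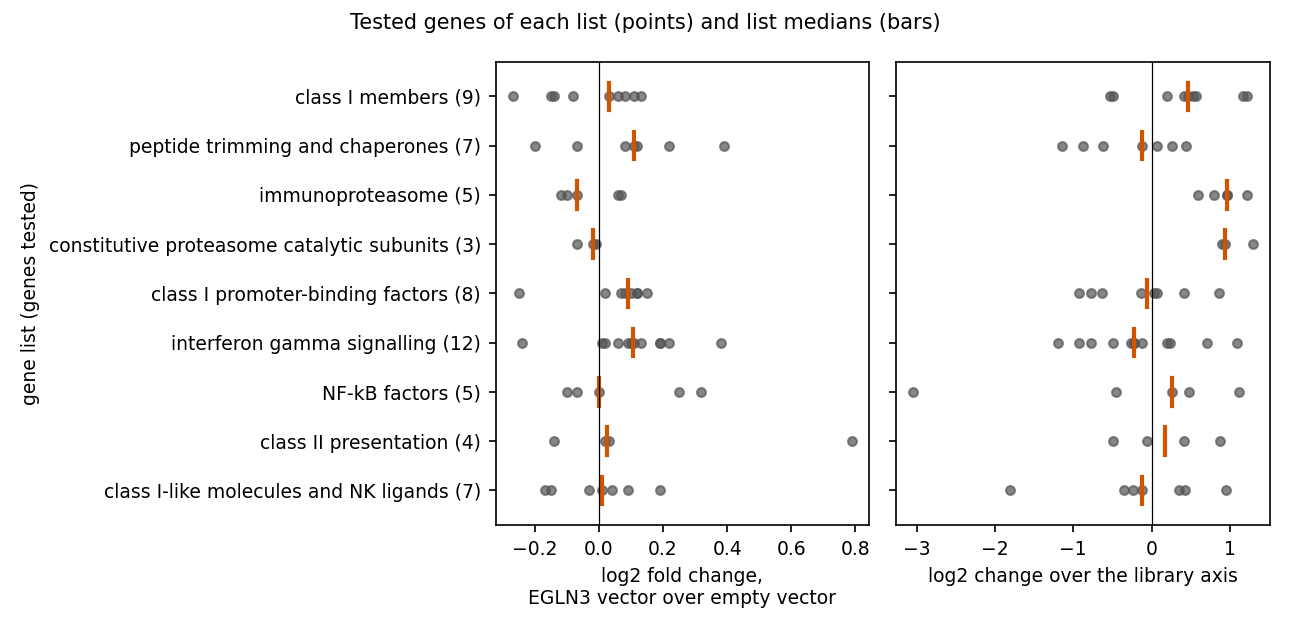
Log2 fold change, EGLN3 vector over empty vector (left), and log2 change over the library axis (right) of each tested gene, by list, with list medians as bars. In the comparison of the vectors CIITA at 0.79 lies farthest from 0, and over the axis immunoproteasome and constitutive proteasome genes all lie above 0.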

How the data were processed

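The authors deposited counts as unscaled whole numbers, 1 value for each gene in each library. Per the submitters' processing notes, the genome was hg38 and the tools DESeq2 1.20.0, featureCounts 1.5.0-p3 and HISAT2 2.0.5; the notes give no order. The sources used here state neither annotation nor strand. Each deposited FPKM is the count over gene length and over 1 factor per library (100% of nonzero values within 0.1%), and served for levels and as an alternative. Of 58735 genes, 58724 had the same start and end in GENCODE release 29, whose longest transcripts gave GC content (99.96% of tested genes).

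The filter was filterByExpr (R 4.3.3). Libraries were scaled by TMM (factors 0.9187 to 1.059) and tested with edgeR 4.0.16 (quasi-likelihood, robust, no covariate), with an adjusted p under 0.05 as a call. The SE is the log2 fold change divided by the square root of F. About 15.2 to 16.8 counts make 1 raw CPM. Alternatives were DESeq2 1.42.0, RLE factors, no filter, the replicate number as a block, limma 3.58.1 on log2(FPKM + 1), log2(FPKM + 0.1) and with at least 0.5 FPKM in 3 libraries, 1 surrogate variable (sva 3.50.0) alone or with spline trends (5 degrees of freedom) on length or on GC content and length, and leaving out each library. Other scalings of the axis and leave-one-out fits with a surrogate variable were chosen after seeing the data. The fits across genes and the library axis were tested on simulated data. Without an axis, the simulated libraries varied less than these (common dispersion here 0.0589). The simulated axis was unrelated to gene length and GC content, so the fits with trends were not tested on such trends. No pair of libraries in a group agreed within sampling noise (chi-square per degree of freedom 5.58 to 66.6).

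The 9 genes and the 11 companion lists (79 genes) were chosen with earlier results of these data known. Named were the 9 genes, EGLN3, the 2 genes with the smallest p in each list, PSMB8, PSMB9, PSMB10, CALR, RFX5, IRF1, CIITA and CD74, and the 5 most similar genes. Some genes of these lists are not reported here. Constitutive proteasome subunits, stromal genes without overlap and HLA-G were named after their values were seen. Promoter windows were aligned with Biopython 1.88.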

Additional observations from a re-analysis of the deposited data

How the results depend on the processing

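Of 9 genes 0 were called in the uncorrected edgeR fit, and 0 with DESeq2, RLE factors, no filter, the replicate block, the 3 fits on FPKM and each of the 6 fits without 1 library (0 to 0). The count was 1, 1 and 1 with a surrogate variable alone, with the length trend and with GC and length trends. Over all tested genes 1 was called, against 713, 712 and 146 in those 3 fits, 0 with limma on log2(FPKM + 1) with or without the FPKM minimum, and 0 to 1 without 1 library. With the replicate block 0 genes were called. Libraries of the same number did not deviate together (correlations of -0.793, -0.176 and -0.674). The library axis weighs heavily in these correlations, so a smaller effect shared by libraries of the same number could not have been seen. The labels do not say whether the numbers mark pairs. EGLN3 kept a log2 fold change of 10.73 to 11.41 without 1 library. With GC and length trends HLA-C and B2M changed sign, to 0.07 and -0.04. Over the fits without 1 library, the log2 fold change ran from -0.34 to 0.32 for HLA-B, -0.20 to 0.03 for HLA-C, -0.31 to -0.04 for HLA-E, -0.56 to 0.08 for HLA-F, -0.15 to 0.14 for B2M, -0.39 to -0.11 for TAP1, 0.09 to 0.20 for TAP2, -0.10 to 0.15 for TAPBP and -0.03 to 0.22 for NLRC5. With a surrogate variable it ran from -0.14 to 0.05 for HLA-C and -0.01 to 0.06 for NLRC5, and with GC and length trends from -0.03 to 0.18 for HLA-C and -0.09 to 0.00 for HLA-F. The calls of all genes ran from 82 to 998 and from 43 to 251 in these fits. The change of TAP2 over the library axis was -0.01 with raw library totals, where the median of the other genes was -0.19. The cause of these differences was not tested. With 3 libraries a group and this spread, small changes of single class I genes could not be seen, and 6 of 10 class II genes had at most 4 counts in any library.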
